A study of Mus musculus with 18 samples.

Results

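The genes Sall1, Sall2, Sall3, Sall4 and Zmynd8 encode partners of NuRD, and the CTCF regions at these genes were described in mouse embryonic stem cells of 3 genotypes. A region is an interval of a peak list, with rows of equal interval joined. It was taken as a member where any of its summits lay inside one of the 5 genes or within 10 kb of it on mm10. The 5 genes were chosen by the presence or absence of their regions in the 3 lists, with the absences at Sall1 and the many regions at Zmynd8 already known, so the counts below are descriptions. The rule gave 34 of 71075 regions of the wild-type list (WT), 34 of 62238 of the list without Tet1, Tet2 and Tet3 (TKO, Tet1/2/3 triple knockout) and 27 of 59372 of the list without those genes and Dnmt1, Dnmt3a and Dnmt3b (SKO, sextuple knockout), 95 of 192685 regions in all. The cells of all 3 genotypes were grown with LIF on irradiated mouse embryonic fibroblasts, and chromatin was immunoprecipitated with an antibody to CTCF. The labels give 3 CTCF ChIP and 3 input samples per genotype (18 samples), which were pooled before peak calling. They do not say whether the replicates were separate cultures or whether a knockout line was 1 clone. Effects of the missing enzymes therefore cannot be told apart from other differences between the lines or from feeder chromatin, and with pooled lists no spread between replicates and no test between genotypes exists.

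NuRD joins a nucleosome remodelling ATPase and histone deacetylases in a single complex, which zinc finger proteins and chromatin readers bring to their sites. The SALL proteins are zinc finger transcription factors that bind the complex through a short conserved motif at their N-terminus. SALL4 is a regulator of embryonic stem cell identity. ZMYND8 reads histone marks through its PHD finger, bromodomain and PWWP domain and can bring NuRD to chromatin. CTCF binds DNA through zinc fingers and anchors chromatin loops with cohesin, and methylation of CpG in its motif hinders binding at some sites. TET enzymes oxidise methylated cytosine and DNMT enzymes place it.

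Of the 34 WT regions at these genes, 25 overlapped a region in both knockout lists. With overlapping regions of the lists merged, 25 of 38 loci at the 5 genes (65.8%) were in all 3 lists, against 66.3% of all 78072 loci. Missing from TKO were 4 (11.8%), where 19% of all WT regions were missing. When overlap had to cover 50% of both regions, 8 were missing (23.5%, against 20.7% of all WT regions), so whether the share lies below or above that of all regions turns with the overlap rule. Missing from SKO were 8 (23.5%), where 21.9% of all WT regions were missing. In the other direction, 5 of the 34 TKO regions had no WT region (14.7%, against 7.49% of all TKO regions). Of the 27 SKO regions, 1 had none (3.70%, against 6.59% of all SKO regions). Between the knockouts, 8 TKO regions were missing from SKO (23.5%, against 14.5% of all TKO regions). From TKO, 1 SKO region was missing (3.70%, against 10.4% of all SKO regions). By gene, 2 of 3 WT regions of Sall1 were missing from TKO and all 3 from SKO. At Zmynd8, which holds 19 of the 34 WT regions, 2 (10.5%) were missing from TKO and 4 (21.1%) from SKO, the second close to the share over all regions. The Zmynd8 count for TKO was 4 with summits within 100 bp as the rule and 6 with an overlap of 50%. Sall2 lacked 1 of 4 in SKO, and Sall3 and Sall4 lacked 0 of 4 in either knockout.

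The genes lie in windows with different amounts of CTCF, and the promoter table of RefSeq (GRCm38.p6, the assembly behind mm10) places Sall1, Sall2 and Zmynd8 on the minus strand. It holds 10 windows for these 3 genes, several per gene, and 0 of the 10 were overlapped by a region of any list. All 5 Zmynd8 windows are at inner starts, so a start at its outer (5′) boundary, 165898981, is not in this count. A region found in all 3 lists lay 0.678 kb beyond that boundary (WT 165899458 to 165899984, fold 14.2). The windows below are shown because they are the annotated start sites nearest to regions that differed between the lists at Sall1, Sall2 and Zmynd8. The other Sall2 window is added as the start next to regions found in all 3 lists. Each gives the 250 bases before the start site, on the strand of the gene, with every CpG in capitals, since CpG is the site that DNMT and TET enzymes act on.
Sall1, start at its outer boundary (chr8:89044163-89044412, minus strand): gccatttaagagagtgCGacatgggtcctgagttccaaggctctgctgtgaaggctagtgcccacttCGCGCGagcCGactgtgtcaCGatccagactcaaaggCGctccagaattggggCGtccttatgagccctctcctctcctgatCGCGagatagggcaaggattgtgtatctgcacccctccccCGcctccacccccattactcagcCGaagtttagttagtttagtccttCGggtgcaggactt
Sall2, start at its outer boundary (chr14:52328671-52328920, minus strand): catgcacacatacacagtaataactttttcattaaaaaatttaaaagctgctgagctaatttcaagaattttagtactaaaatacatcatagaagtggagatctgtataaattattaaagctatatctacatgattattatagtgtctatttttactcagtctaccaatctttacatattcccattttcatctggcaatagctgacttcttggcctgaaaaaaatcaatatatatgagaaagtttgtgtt
Sall2, inner start (chr14:52316324-52316573, minus strand): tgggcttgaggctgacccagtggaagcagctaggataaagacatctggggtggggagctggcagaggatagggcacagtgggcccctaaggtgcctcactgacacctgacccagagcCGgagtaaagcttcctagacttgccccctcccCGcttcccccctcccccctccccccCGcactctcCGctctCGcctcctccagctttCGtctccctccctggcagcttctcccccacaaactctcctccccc
Zmynd8, inner start (chr2:165858174-165858423, minus strand): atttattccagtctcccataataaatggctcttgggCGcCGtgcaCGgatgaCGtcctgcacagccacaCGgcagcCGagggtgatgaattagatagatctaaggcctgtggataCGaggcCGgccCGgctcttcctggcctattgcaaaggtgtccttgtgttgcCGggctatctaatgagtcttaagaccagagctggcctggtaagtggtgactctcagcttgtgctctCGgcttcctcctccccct

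These windows differed in CpG content. The Sall1 window held 13 CpG, more than 68.5% of the 32851 windows in the table, and the outer Sall2 window held 0. The inner Sall2 window held 6, the median of all windows, and the Zmynd8 window held 11. The 2 inner Sall1 windows, not printed, held 25 and 30 CpG, more than 89.3% and 94.1% of all windows. The 4 other Zmynd8 windows held 4 to 6. Exons are not in the tables used, so positions are given relative to gene boundaries.

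Sall1 (chromosome 8, 89027242 to 89044162, 16.9 kb) encodes a repressor needed for kidney development, and its CTCF regions were found mainly in WT. The WT list held 3 regions there. One lay 1.55 kb below the low-coordinate boundary, past the 3′ end (89025570 to 89025821), with a fold enrichment of 5.83, the value the authors' peak caller gives for ChIP fragments at the summit over those taken as local background. Another lay inside the gene, 10.4 kb from that boundary (89037492 to 89037761, fold 4.17), and the strongest lay 2.82 kb before the outer start site (89046797 to 89047380, fold 7.82). The TKO list held 1 region, over the last of these (89046896 to 89047399, fold 4.87), and its main summit lay 5 bp from that of WT. The SKO list held 0.

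The depth behind these values was read from the number of ChIP fragments over the summit, the pileup, which fold and −log10 p together return as a whole number, set against the genome-wide background of each list (1.76 fragments in WT, 1.82 in TKO and 1.37 in SKO). At the Sall1 region before the start site, the WT pileup was 43 (95% Poisson interval 31.1 to 57.9), or 24.5 times the background, and the TKO pileup was 33 (22.7 to 46.3), or 18.1 times. The ratio of TKO to WT on this scale was 0.741, with an interval of 0.456 to 1.19 that includes 1. The intervals here and below cover counting error only, not variation between cultures or immunoprecipitations. Brought to the depth of the SKO list, the WT pileup would stand at 33.5 fragments over a background of 3.61, where a pileup of 11 would reach the lowest −log10 p in that list. A pileup below 0.328 of the WT level could thus go unseen at this site if the local background scaled with depth. The other WT regions would stand at 20.3 and 17.9 fragments in SKO, where 10 and 12 would be needed, and at 26.9 and 23.8 in TKO, where 12 and 14 would be needed. The minimum width of a peak is not part of these estimates, and the part of depth in the absences was not tested.

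The Sall1 regions were of low to middle strength and stood far from other CTCF regions. When the WT list was divided into 10 deciles of equal size by −log10 q (decile 1 the weakest), they fell in deciles 3, 2 and 5, where 43.4%, 62.1% and 9.54% of all WT regions were missing from SKO. For the first 2 of them, the ones missing from TKO, the shares of their deciles missing from TKO were 36.3% and 55.2%. The nearest WT regions beyond the 10 kb window lay 81.0 kb and 260 kb away. In SKO the flanking regions were 438 kb apart with none between, against a median gap of 16.4 kb in that list. There, 0.924% of 59334 gaps were at least as long. In WT and TKO the flanking regions were 358 kb and 438 kb apart. Sall1 regions lay between them, so these spans are not gaps in those lists. Stretches that reads cannot map to are part of all these distances. Sall1 was chosen with its absences known, so the SKO gap and the shares of genes that follow describe it and test nothing. Among 2999 protein-coding genes with exactly 3 WT regions in the same window, 27 (0.90%) missed all 3 in SKO, as Sall1 did. Of the same genes, 232 (7.74%) missed 2 of the 3 in TKO, as Sall1 did. Genes most like Sall1 were sought by the numbers of merged regions in each of 7 classes (in 1 list, in a pair, or in all 3). Of the other protein-coding genes in the table, 9 had the same numbers (2 in WT alone and 1 in WT and TKO), among them Arl5b, Chrna7, which encodes a nicotinic acetylcholine receptor subunit, and Fam189a2.

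Sall2 (chromosome 14, 52311177 to 52328670, 17.5 kb), a more divergent family member, had 4 WT, 4 TKO and 3 SKO regions. The region beyond its 3′ end, 0.625 kb from the boundary and 1.81 kb from Mettl3, which encodes the RNA m6A methyltransferase, was in all 3 lists (WT 52310365 to 52310722). Its fold was 13.3, 10.7 and 7.10 in the WT, TKO and SKO lists, and its pileups were 51, 37 and 19. Over the background of each list these were 29.1, 20.3 and 13.9 times. The ratio to WT was 0.700 in TKO (0.446 to 1.09) and 0.478 in SKO (0.267 to 0.824), so the counting interval includes 1 in TKO and lies below 1 in SKO, where 1.72% of all shared regions had a lower ratio. This region was singled out after its values were seen.

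Before the inner Sall2 start, 2 regions were in all 3 lists. At 52317525 to 52317756, 1.32 kb before that start, the pileups were 16 in WT, 12 in TKO and 18 in SKO, and at 52319024 to 52319312 they were 28, 35 and 19. The ratios of both to WT had intervals that include 1 in either knockout. The fourth WT region lay inside the gene 2.55 kb from the outer start (52325998 to 52326237), with a pileup of 18 in WT (10.7 to 28.4) and 22 in TKO (13.8 to 33.3), and was missing from SKO. It was in decile 2 of WT, where 62.1% of regions were missing from SKO, and at SKO depth it would stand at 14.0 fragments where 9 would be needed. Just outside the 10 kb window, 10.2 kb above the gene, a much stronger region was in all 3 lists (fold 23.3, 18.9 and 16.4). The next nearest to the edge of a window were a Sall4 region 10.99 kb above the gene (fold 7.42 in WT) and, within it, the Sall4 region at 9.28 kb described below.

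Sall3 (chromosome 18, 80966989 to 80987021, 20.0 kb), a factor of limb, nerve and craniofacial development, kept all 4 of its WT regions in both knockouts. Inside the gene, the region 7.04 kb from the low-coordinate boundary (80973873 to 80974330) had pileups of 23 in WT, 26 in TKO and 15 in SKO. The region at 80980000 to 80980309 had 21, 18 and 18. The one at 80981179 to 80981402 had 20 in WT, 33 in TKO and 22 in SKO, a TKO to WT ratio of 1.59 (0.887 to 2.93). The region 8.11 kb above the gene (80994937 to 80995293) had 33, 22 and 17, with ratios of 0.644 (0.357 to 1.14) in TKO and 0.661 (0.345 to 1.22) in SKO. All 8 intervals included 1. With depth taken instead so that the median ratio over all shared regions is 1, the TKO ratio at 80981179 was 1.84 (1.03 to 3.39), whose interval excludes 1. TKO alone had another region, 2.96 kb inside the gene (80969835 to 80970043, fold 6.02, pileup 16, 9.15 to 26.0), in decile 2 of the TKO list, where 20.6% of regions had no WT partner.

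Sall4 (chromosome 2, 168748332 to 168767201, 18.9 kb) had, in and within 10 kb of it, the strongest CTCF regions of the family by median WT fold. The median was 10.5, against 5.83 at Sall1, 7.65 at Sall2 and 6.27 at Sall3. The regions outside Sall4 were nearer to Atp9a than to Sall4 or inside Atp9a. All 4 of its WT regions were in the 3 lists. The strongest by −log10 q lay 5.49 kb below the gene and 0.476 kb from Atp9a, which encodes a phospholipid flippase (168742636 to 168743074). Its pileups were 84 in WT, 92 in TKO and 84 in SKO, or 47.9, 50.6 and 61.4 times the background, and its SKO to WT ratio was 1.28 (0.937 to 1.76). The only WT region inside the gene (168764939 to 168765308, fold 13.8 in WT, 13.3 in TKO and 11.1 in SKO) had pileups of 55, 53 and 44. The remaining WT regions lay 9.28 kb below the gene, inside Atp9a, and 3.79 kb below it, 2.17 kb from Atp9a. They had pileups of 39 and 31 in WT, 41 and 28 in TKO, and 32 and 18 in SKO. None of the 8 ratios to WT at Sall4 had an interval that excludes 1.

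The TKO list held 2 regions at Sall4 that were in neither other list. One lay 6.97 kb below the gene, inside Atp9a (168741260 to 168741491, fold 6.30, pileup 19, 11.4 to 29.7), and the other inside Sall4 (168758727 to 168758946, fold 3.54, pileup 11, 5.49 to 19.7). The first was in decile 3 of the TKO list, where 9.16% of regions had no WT partner, and the other in decile 1, where 41.8% had none. The first would stand at 18.3 fragments at WT depth, where 8 would be needed. The other would stand at 10.6, where 9 would be needed.

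**Figure D1:**
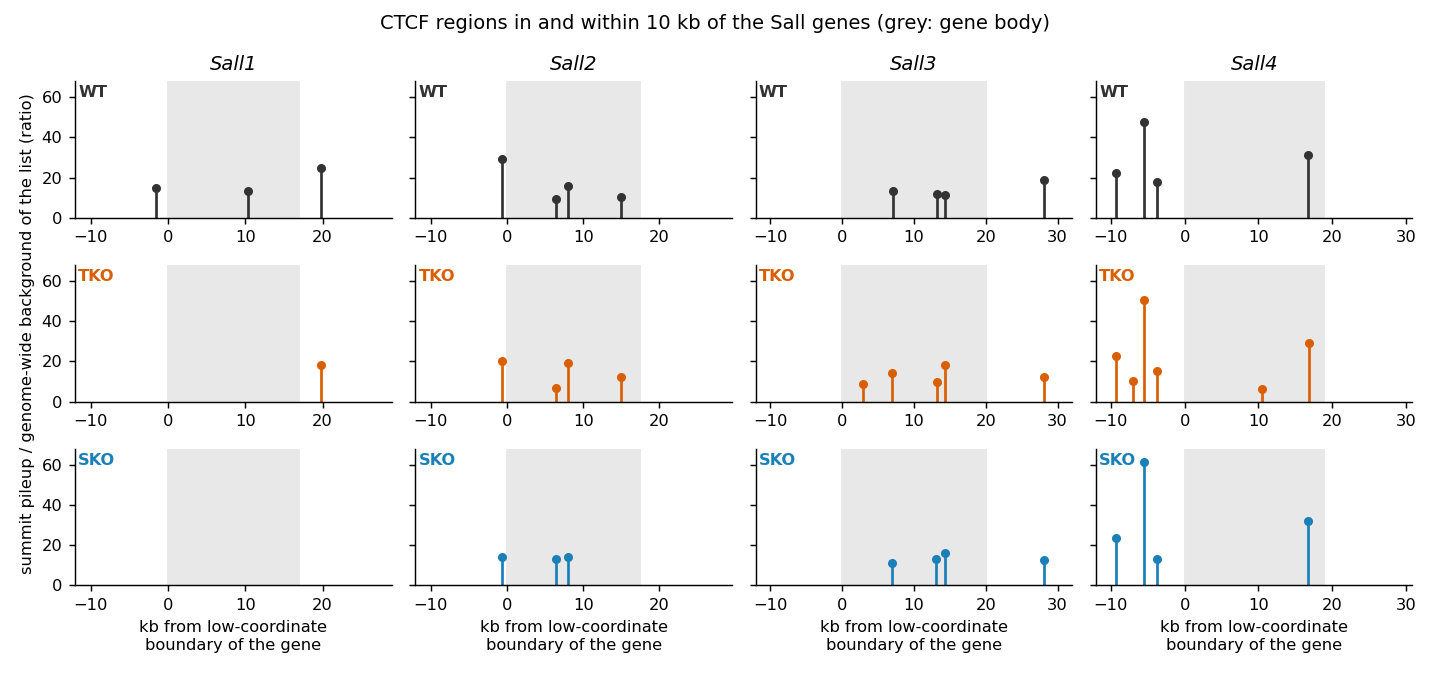
CTCF regions in and within 10 kb of the 4 Sall genes, by list (rows). Each stem is a region at the distance of its main summit from the low-coordinate boundary of the gene (kb), and its height is the summit pileup over the genome-wide background of its list (ratio); the gene body is grey. Sall1 has 3 stems in WT, 1 in TKO and 0 in SKO, while Sall3 and Sall4 have 4 WT stems each that recur in both knockouts.

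Zmynd8 (chromosome 2, 165784152 to 165898981, 115 kb) had more CTCF regions than nearly all genes of its length. Its many regions were known when the 5 genes were chosen, so its place among genes of like length is a description and not a test. The WT list held 19 regions there, the TKO list 18 and the SKO list 16. Among 1145 other protein-coding genes from 0.8 to 1.25 times as long, the median was 5 WT regions, and 1 gene (0.0873%) had as many or more, Tacc1 with 22. By contrast, 24.7% to 41.2% of the genes of like length to each Sall gene had as many WT regions as that Sall gene, or more. Neighbouring genes share regions, so these shares describe genes that are not independent of each other.

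**Figure D2:**
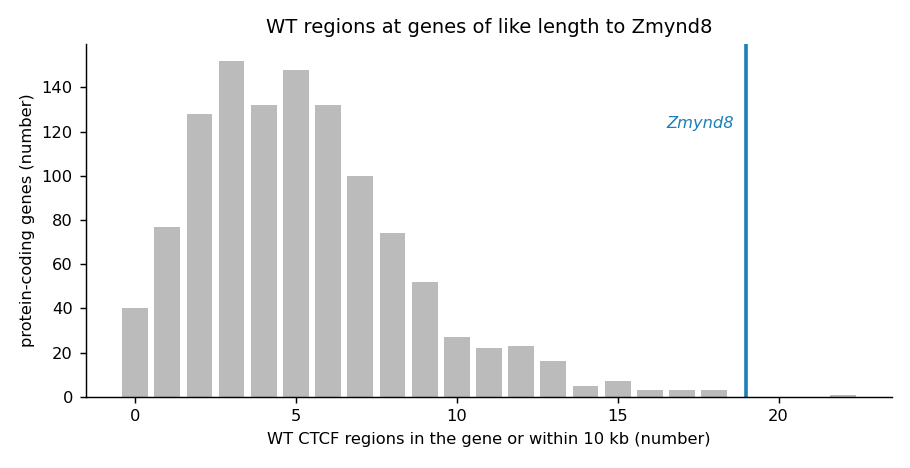
Number of protein-coding genes (vertical axis) by the number of WT CTCF regions in the gene or within 10 kb (horizontal axis), over the 1145 genes of like length to Zmynd8. The line marks Zmynd8 at 19 regions, beyond all of these genes but 1. That Zmynd8 has many regions was known when it was chosen.

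The strong Zmynd8 regions recurred in all 3 lists. At 165778891 to 165779292, 5.06 kb beyond the 3′ end, the region of highest WT fold had a fold of 31.3, 23.1 and 18.9 in the WT, TKO and SKO lists, and pileups of 138, 153 and 106. Its ratios to WT were 1.07 (0.845 to 1.36) in TKO and 0.986 (0.758 to 1.28) in SKO. The fold was thus lower in both knockouts while the pileup stood at 78.6, 84.1 and 77.5 times the genome-wide background. The local background, by which the fold is divided, was 3.44 fragments in WT, 5.67 in TKO and 4.66 in SKO at this site. Inside the gene, the region at 165825893 to 165826322 had a fold of 19.7 in WT and pileups of 80, 84 and 63. The region at 165811534 to 165811961 had a WT fold of 16.9 and pileups of 172, 151 and 125, a ratio of 0.848 in TKO (0.677 to 1.06) and 0.933 in SKO (0.735 to 1.18). All ratios of these 3 regions had intervals that include 1.

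**Figure D3:**
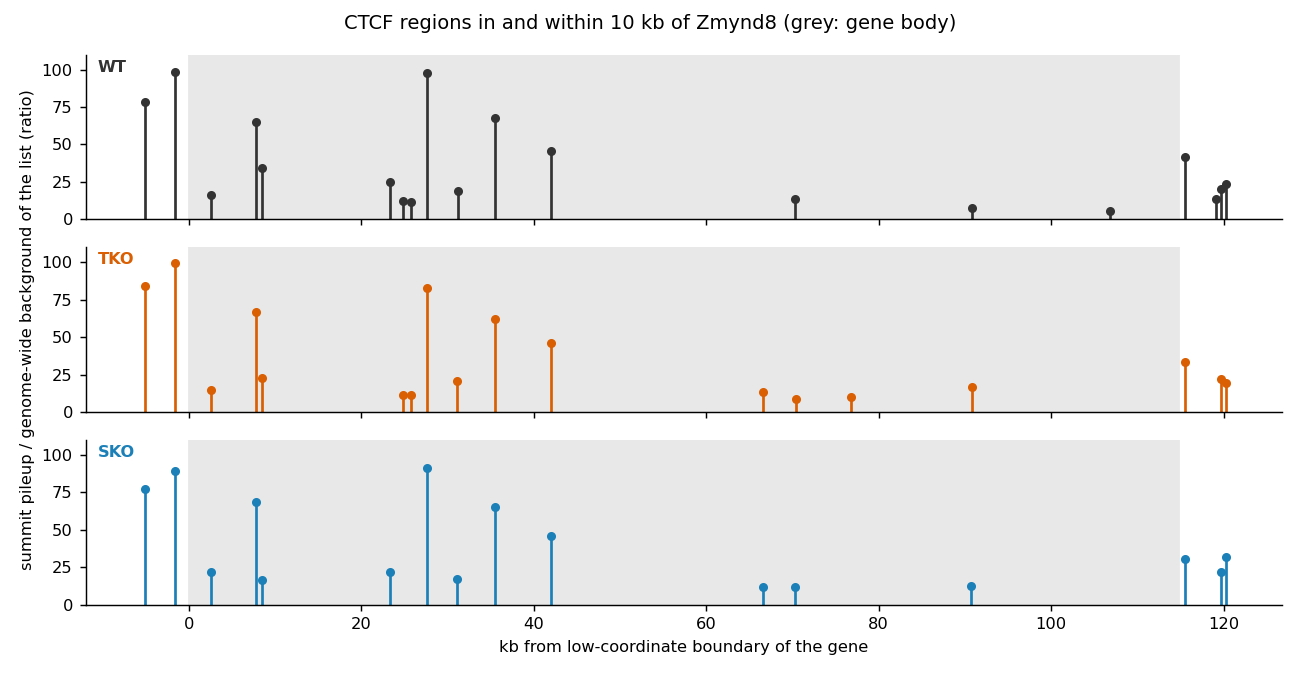
CTCF regions in and within 10 kb of Zmynd8, by list (rows). Stems stand at the distance of the main summit from the low-coordinate (3′) boundary of the gene (kb), with the summit pileup over the genome-wide background of the list as height (ratio); the gene body is grey. The tall stems, up to 99.5 times the background in TKO, stand at the same positions in each row. Stems absent from a row reach at most 25.1 times the background, for the WT stem at 23.4 kb that TKO lacks. Heights also differ, as at 8.44 kb, where the stem stands at 34.2 in WT, 22.5 in TKO and 16.8 in SKO.

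The Zmynd8 regions that differed between the lists were weak or of middle strength. The strongest of them, 23.4 kb inside the gene from its 3′ end (165807350 to 165807686), had a pileup of 44 in WT (32.0 to 59.1) and 30 in SKO (20.2 to 42.8) and was missing from TKO. It was in decile 5 of WT, where 6.95% of all regions were missing from TKO. At TKO depth it would stand at 45.6 fragments, where 14 would be needed. It was the only WT region at the 5 genes found in SKO and not in TKO.

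Next to it the lists differed the other way. The regions at 165808503 to 165809083 and 165809810 to 165810024 had pileups of 21 and 20 in WT and 21 each in TKO, and both were missing from SKO. They were in deciles 2 and 1 of WT, where 62.1% and 76.9% of regions were missing from SKO. At SKO depth they would stand at 16.4 and 15.6 fragments, where 10 and 13 would be needed. Within 3 kb, one site was thus absent from TKO and its 2 neighbours from SKO.

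Beyond the 5′ boundary of Zmynd8, the WT region at 165903090 to 165903420 (pileup 24) had no SKO partner. A TKO region overlapped it (165903265 to 165903990), but the TKO summit lay 510 bp away, 11 bp from the summit of the next WT region, which was in all 3 lists. The weakest WT region, inside the gene at 165890922 to 165891122 (fold 2.82, −log10 q 1.64, pileup 10), was in neither knockout. At SKO depth it would stand at 7.79 fragments where 9 would be needed, and at TKO depth at 10.4 where 10 would be needed. The part of depth in either absence was not tested.

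Both knockouts had a region 66.5 kb from the 3′ end of Zmynd8 that WT lacked (165850560 to 165850807 in TKO), with a pileup of 24 in TKO (15.4 to 35.7) and 16 in SKO (9.15 to 26.0). It was the only SKO region at the 5 genes without a WT partner, and 9.16% of TKO regions and 17.6% of SKO regions of its decile in each list had none. TKO alone had a region at 165860499 to 165860989 (fold 3.79, pileup 18, 10.7 to 28.4), 2.73 kb before the inner start whose window is printed above. It was in decile 1 of the TKO list, where 41.8% of regions had no WT partner.

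By classes of merged region, Zmynd8 had 14 in all 3 lists, 2 in WT and TKO, and 1 each in WT alone, TKO alone, WT and SKO, and TKO and SKO. Of the other protein-coding genes, 0 had the same numbers. The most like, by the sum of absolute differences over the 7 classes, were Cgnl1, which encodes a tight junction protein, and Tyw1, an enzyme of wybutosine synthesis in transfer RNA (sum 3 each), and 2900026A02Rik (sum 4).

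Across the 5 genes, differences in presence between the lists fell among the weaker regions, as over the whole lists. Of the 34 WT regions, 23 were in deciles 1 to 5, with 4 missing from TKO and 8 from SKO, and 11 were in deciles 6 to 10, with 0 missing from either. Over all WT regions, 37.6% of deciles 1 to 5 were missing from TKO and 43.3% from SKO, against 0.357% and 0.512% of deciles 6 to 10. The 5 TKO regions and the 1 SKO region without a WT partner were also in deciles 1 to 5 of their lists.

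**Figure D4:**
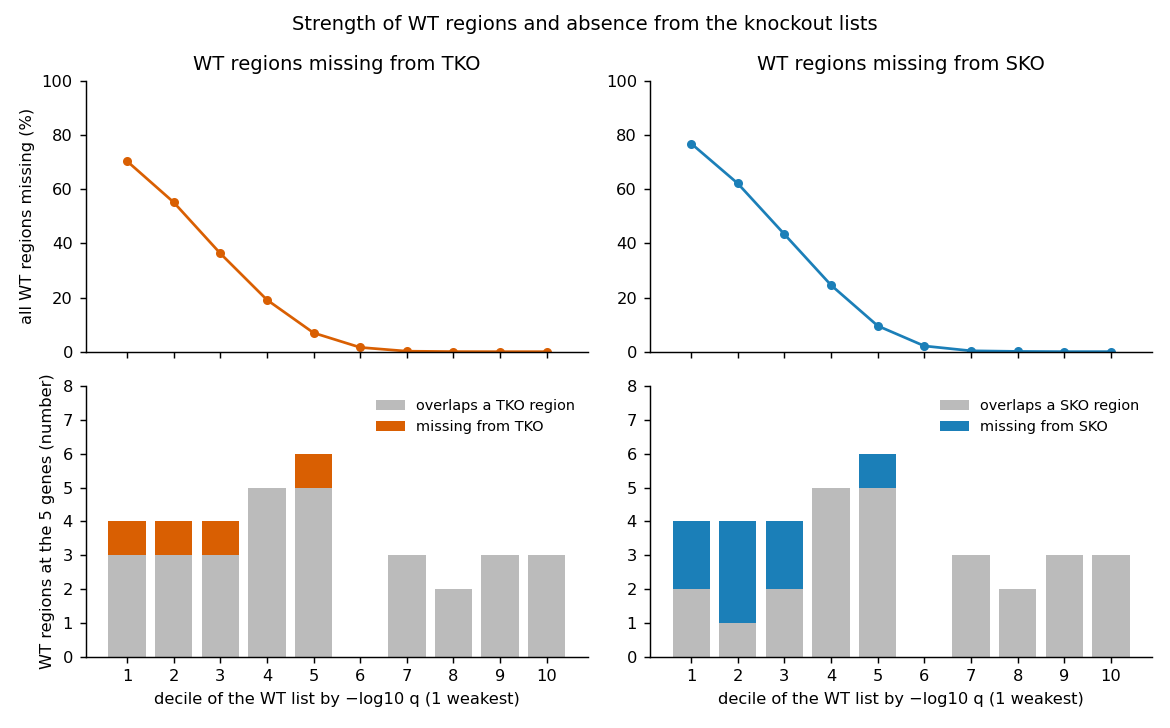
Strength and absence of WT regions, for TKO (left) and SKO (right). Above, the share of all WT regions missing from the knockout list (%) in each decile of the WT list by −log10 q, from the weakest (1) to the strongest (10); below, the number of WT regions at the 5 genes in each decile, coloured where missing. Coloured parts stand in deciles 1, 2, 3 and 5 in both panels, and the share over all WT regions falls from 70.4% to 0% in TKO and from 76.9% to 0.0141% in SKO.

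In regions present in both lists, the pileups at these genes varied around the WT level. In TKO, 30 WT regions had a partner. Their median ratio was 0.988 (lowest 0.644, highest 2.23), against 0.864 over all 57583 shared regions (quartiles 0.737 and 1.01). In SKO, 26 had a partner, with a median of 0.973 (lowest 0.478, highest 1.68), against 0.942 over 55504 (quartiles 0.781 and 1.12). The interval lay below 1 for 1 of 30 members in TKO (14.8% over all shared regions) and above 1 for 1 of 30 (0.99%). In SKO it lay below 1 for 2 of 26 members (8.47%) and above 1 for 0 of 26 (3.5%). The TKO calls turned with the depth scale. With the median over all shared regions as depth, the interval lay below 1 for 0 of 30 members (4.6%) and above 1 for 3 of 30 (3.9%). The 3 were the Sall3 region at 80981179, the Zmynd8 region at 165874791 and the Zmynd8 region at 165903090, whose TKO summit is 510 bp away. On that scale the SKO calls were again 2 of 26 below 1 (5.55%) and 0 of 26 above 1 (5.57%). A region must pass the threshold in both lists to be in these counts, so they leave out the sites missing from a knockout.

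The members behind the calls on the first scale were 2 Zmynd8 regions and the Sall2 region beyond its 3′ end, and they were picked after their values were seen. At Zmynd8, 8.44 kb from the 3′ end (165792393 to 165792831), the pileups were 60 in WT (45.8 to 77.2), 41 in TKO and 23 in SKO, or 34.2, 22.5 and 16.8 times the background. The ratio was 0.660 in TKO (0.432 to 0.998) and 0.492 in SKO (0.290 to 0.808). With depth from the median over all shared regions the TKO ratio was 0.764 (0.501 to 1.16), and its interval includes 1. Its neighbour at 165791658 to 165792131, also picked after its values were seen, had pileups of 114, 121 and 94 and ratios of 1.02 and 1.06. The other Zmynd8 region, 90.8 kb from the 3′ end (165874791 to 165875044), had 13 in WT, 30 in TKO and 17 in SKO. Its ratio was 2.23 in TKO (1.13 to 4.65) and 1.68 in SKO (0.768 to 3.76).

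**Figure D5:**
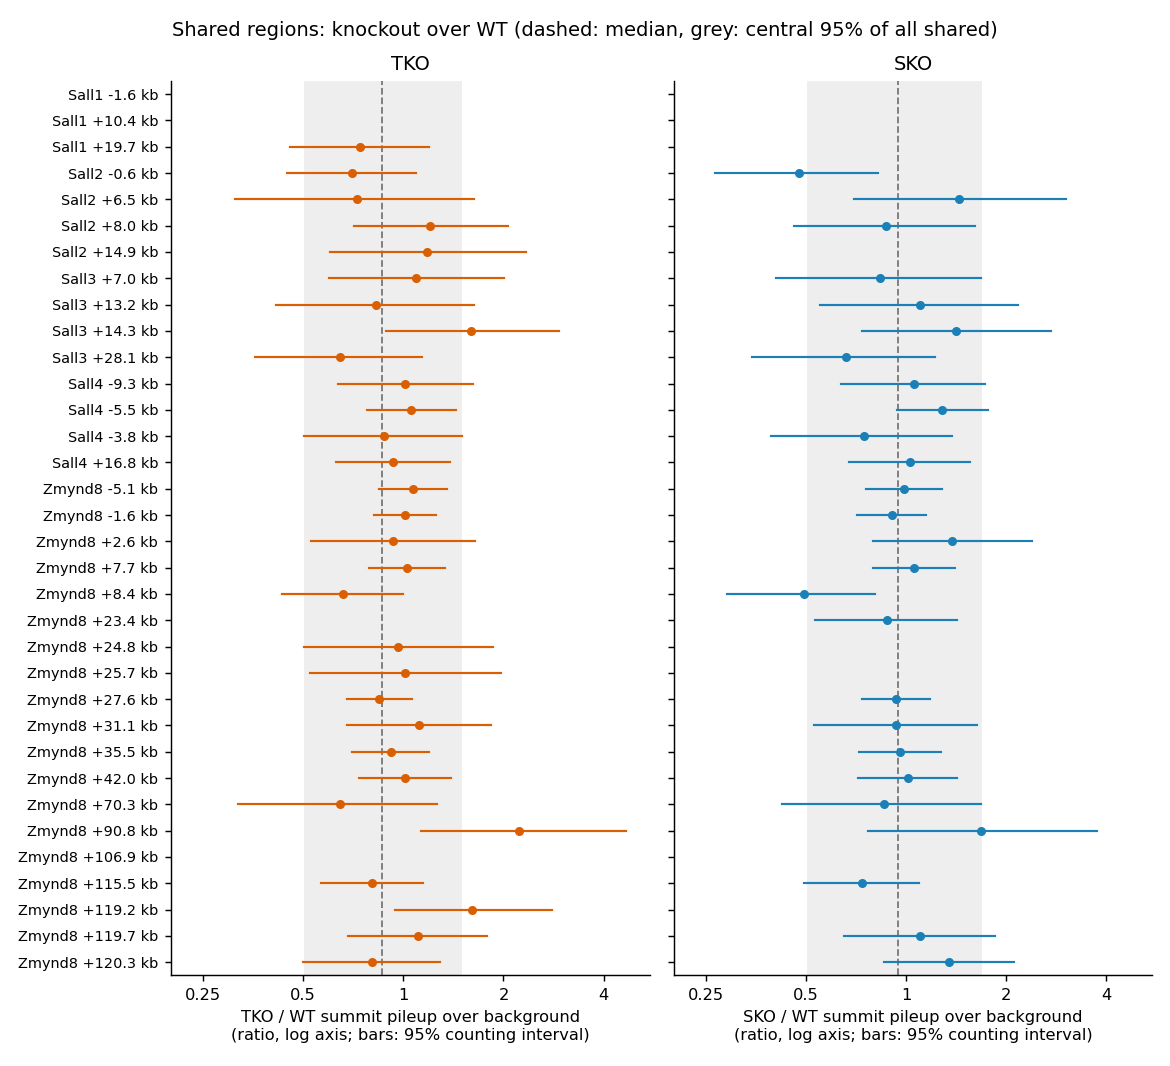
Ratio of knockout to WT summit pileup, each over the background of its list (log axis), for the WT regions at the 5 genes that had a partner in TKO (left) or SKO (right). Points are ratios, bars 95% counting intervals, rows are named by gene and distance from its low-coordinate boundary (kb); rows with no point are regions missing from that knockout. The dashed line is the median and the grey band the central 95% of all shared regions. Most bars cross 1, and those of the first Sall2 region and of Zmynd8 at 8.4 kb lie below 1 in SKO.

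Most matched summits lay close together. The median distance between the main summits of matched regions was 11.5 bp for WT and TKO and 12.5 bp for WT and SKO at these genes, against 10 and 11 bp over all shared regions. Of the members, 26 of 30 lay within 50 bp in TKO, a lower share than the 95.9% over all, and 26 of 26 in SKO (95% over all). The others in TKO lay 57 bp apart at Sall3 and 55, 106 and 510 bp apart at Zmynd8.

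Other genes of the NuRD pathway were counted in the same way. Over all WT regions, 19% were missing from TKO and 21.9% from SKO. The genes of 15 core subunits held 68 WT regions, of which 13 (19.1%) were missing from TKO and 11 (16.2%) from SKO. Over all loci, 66.3% were in all 3 lists, and the genes named next were picked for their counts. Those with most merged regions not in all 3 lists were Gatad2b, which encodes a zinc finger subunit of the complex (4 of 13), the ATPase gene Chd5 (4 of 9) and Gatad2a, the paralogue of Gatad2b (3 of 11). The histone chaperone gene Rbbp7 also had 3 such regions, of 3 in all. The genes of 8 other zinc finger partners held 25 WT regions. Of these, 7 (28.0%) were missing from TKO, against 19% of all WT regions. From SKO 7 were missing, where 21.9% of all WT regions were. There Zfpm1, which encodes the GATA cofactor FOG1, had 4 of 8 not in all 3 lists, Bcl11b, a factor of T cell identity, 4 of 8, and its paralogue Bcl11a, a repressor of fetal globin, 3 of 5. Mbd3, Zfpm2 and Ikzf1 had no difference between the lists, and Rbbp4 had no region. No difference between the gene sets was tested.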

How the data were processed

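CTCF ChIP-seq peak lists of WT, TKO and SKO cells were used, 1 per genotype, each called by the authors on 3 pooled replicates against input, per the labels. Per the submitters' processing notes, the genome was mm10 and the tools included MACS2 2.1.2, a peak caller, the aligner Bowtie2 2.3.4, and SAMtools 1.9, with FastQC 0.11.7 for read quality. How reads were filtered is not given in the sources used here. Each deposited peak carries a fold (a ratio of ChIP pileup to background), a −log10 p, a −log10 q (lowest 1.30, a q of 0.05), a summit offset and a score, which was not used.

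Rows with equal intervals were joined (73125 WT, 64121 TKO and 61027 SKO rows), keeping the values of the strongest summit. Regions sharing at least 1 bp count as shared. Pileup and local background were solved from fold = (pileup + 1)/(background + 1) and the Poisson upper tail. This form is an assumption that the values bear out: a whole pileup (relative error of −log10 p under 1e-04) was found for all regions but 1 in each list. The lowest background returned was taken as genome-wide depth. The solver was tested on simulated data and the overlaps checked with bedtools 2.31.1. Python 3.11.15 and scipy 1.17.1 gave Poisson and Clopper-Pearson intervals, which cover counting error only. They treat fragments as independent, which PCR copies are not.

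Genes came from RefSeq GRCm38.p6. The 5 genes, the other gene lists and the alternatives (gene window, stricter q, overlap rule, summit used, depth scale) were chosen with earlier results of these data known. The regions named are all those at the Sall genes. At Zmynd8 they are those not in all 3 lists and the 3 shared ones of highest WT fold, and from each other list the 3 genes with most differing regions are named. Regions chosen after their values were seen are marked.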

Additional observations from a re-analysis of the deposited data

How the results depend on the processing

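Gene bodies alone left 21 WT, 22 TKO and 17 SKO regions at the 5 genes. Of the WT regions, 5 were missing from SKO (23.8%, against 21.9% of all WT regions). With 50 kb either side there were 51 WT and 44 SKO regions. Of these, 7 WT regions were missing from TKO (13.7%, against 19% of all WT regions). Of the SKO regions, 3 were missing from WT (6.82%, against 6.59% of all SKO regions) and 4 from TKO (9.09%, against 10.4%). When overlap had to cover 50% of both regions, 8 WT regions were missing from TKO (23.5%, against 20.7% of all WT regions), 8 TKO regions from WT (23.5%, against 9.43% of all TKO regions) and 2 SKO regions from TKO (7.41%, against 12.3% of all SKO regions). At Zmynd8 alone, 6 WT regions were then missing from TKO, 5 TKO regions from WT and 2 SKO regions from TKO, and 4 WT regions were missing from TKO with summits within 100 bp. The other counts recomputed, over the 5 genes or per gene, stayed within 1.5 times of those reported, including all with a −log10 q of at least 5 and with the strongest summit placing a region. With depth taken from the median over all shared regions, the median ratio of members to WT was 1.14 in TKO and 1.03 in SKO, so both lie below 1 on one scale and above it on the other. The TKO calls on that scale were 0 below 1 and 3 above. No paired analysis was possible because the replicates were pooled before peak calling, and for the same reason no replicate could be left out. Missing regions are mostly weak, and absence from a list is not absence of binding.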
